A study of Mus musculus with 2 samples.

Results

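The genes described here belong to the transforming growth factor beta (TGF-beta), bone morphogenetic protein (BMP) and activin pathways. They were chosen by symbol: all genes named Smad, Bmp, Bmpr, Tgfb, Acvr, Gdf, Inhb, Ltbp or Id1 to Id4 followed by their number or letter, plus Mstn, Fst, Fstl1, Fstl3, Nog, Grem1, Chrd and Eng. The choice found 62 of the 16593 named genes of the array, with 92 probes; Fstl3 was not analysed here. A probe was taken as detected at a detection p-value under 0.01, and 44 of the 62 genes were detected: 37 on both arrays, 5 with vehicle only and 2 with DHT only. The other 18 were detected on neither.

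RNA came from tibialis anterior muscle, a muscle at the front of the lower leg, of 10-day-old C57/BL6 mice. They had received a subcutaneous injection of vehicle or of DHT, which is taken here to mean the androgen dihydrotestosterone. Muscle was collected 24 h later and measured on Illumina bead arrays, with 1 array per group and 2 in all. The labels do not give the sex or litter of the mice, nor whether 1 array held RNA of several animals. Skeletal muscle markers were bright on both arrays: all 10 were detected, several near the top of the scale, where a difference between the arrays is not measured.

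Ligands of this superfamily are secreted as dimers and bind pairs of type II and type I receptor kinases. The receptors phosphorylate Smad proteins: TGF-beta and activin act mainly through Smad2 and Smad3, BMPs through Smad1, Smad5 and Smad9, and both kinds of Smad join Smad4 on DNA. In skeletal muscle, myostatin and activins acting on Acvr2b restrain fibre growth, follistatin binds them, and BMP signalling through Smad1 and Smad5 favours muscle mass. TGF-beta is held latent in the matrix by the Ltbp proteins.

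With 1 array per group no test could be made, and every value is a description of these 2 arrays with no error between animals. Each difference is the log2 level on the DHT array minus that on the vehicle array, after background correction and quantile normalization, and signals are the deposited intensities before normalization. The DHT array was dimmer as a whole, with a median signal of 168 against 177 and a total of 2.65e+07 against 2.99e+07, so a probe with about the same signal on both arrays has a difference above 0 at most levels. Detected probes of the same gene differed from each other with an SD of 0.26 over 1967 genes, 0.28 for probes with a mean signal under 500 and 0.19 for brighter ones. Of 8815 named genes detected on 1 array or more, 13.4% differed by 1.5-fold or more upward on the DHT array, 15.8% downward and 29.2% in either direction; without background correction the shares were 6.74%, 8.43% and 15.2%.

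Of the 44 detected pathway genes, 6 were higher on the DHT array by 1.5-fold or more and 13 were lower, or 13.6% and 29.5%. Their median difference was -0.18, where that of all named genes was -0.01. At 2-fold, 1 was higher and 3 lower, where the shares of all named genes were 4.61% and 6.28%. Without background correction 4.55% of the 44 were higher and 9.09% lower, close to the 6.74% and 8.43% of all named genes. Of the 37 with detection on both arrays, 4 were higher and 10 lower, against 12% and 13.4% of all named genes so detected. The 7 genes detected on 1 array passed the detection filter only through their brighter array, so their differences are partly a product of the filter. The plot of levels shows each gene on both arrays. Of the 22 detected pathway genes with a mean signal under 500, 11 passed 1.5-fold in either direction, where 35.8% of all named genes that dim did. Of all 19 genes past 1.5-fold, 6 kept that size without background correction: Smad3 and Acvr2b higher, and Fstl1, Bmp1, Ltbp4 and Smad1 lower. These 6 passed 1.5-fold under each of the 11 settings that gave them a value. Several of these settings cannot change a bright gene detected on both arrays. Among them, the authors' deposited log2 values repeat the uncorrected values by which the 6 were picked.

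**Figure D1:**
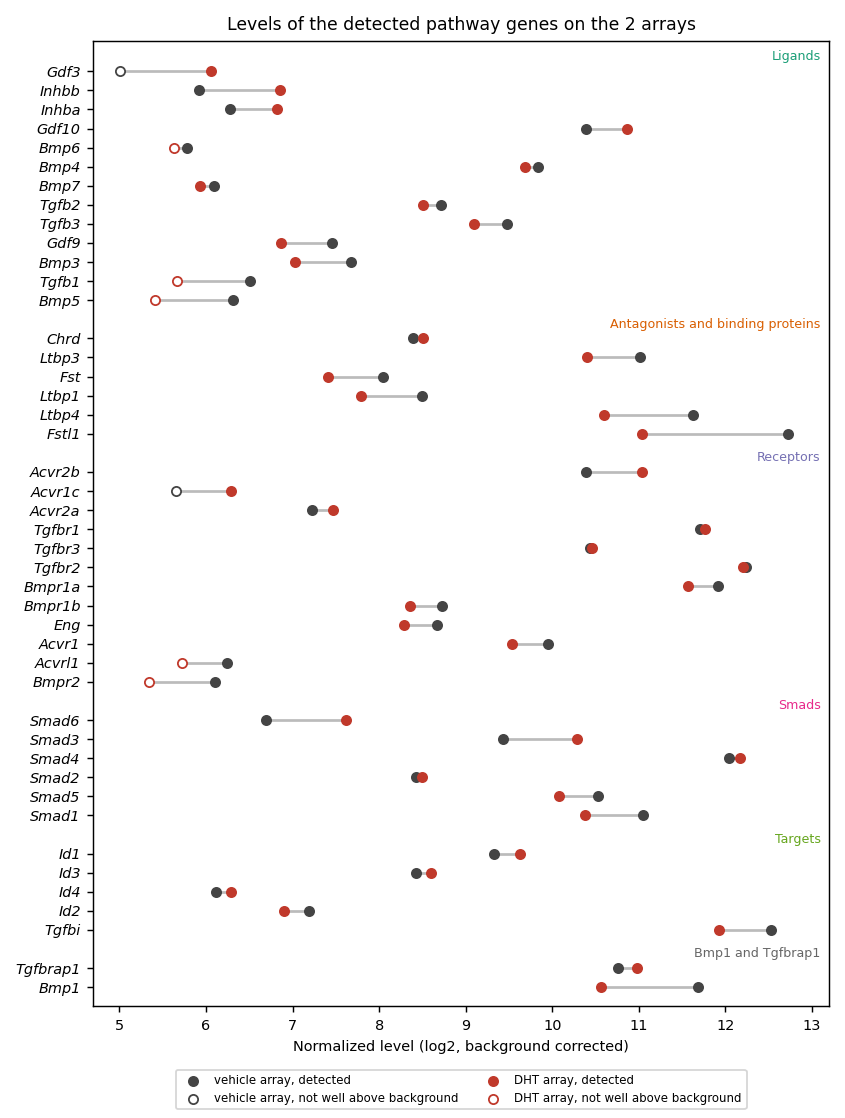
Normalized log2 level of each detected pathway gene on the vehicle array (dark) and the DHT array (red), grouped by role, 1 array per group. Open points were not well above background; levels are to be read along a row, since probes differ in brightness, and the longest line among genes detected on both arrays is that of Fstl1, from 12.72 to 11.04.

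Promoter letters were read for these genes because DHT acts through the androgen receptor and the pathway acts through Smads. RefSeq promoter windows of 300 bases (GRCm38.p6) were read for 46 of the genes, at the first listed start of each. The word AGAACA or its reverse TGTTCT, an arm of the androgen response element, stood in 3 of the 46 windows (6.52%), those of Smad6, Inhbb and Bmpr2, and in 19% of 27025 promoter windows of all genes. The palindromic Smad-binding word GTCTAGAC stood in 1 of the 46, that of Smad6, and in 0.211% of all windows. The GC-rich word GGCGCC, bound by BMP Smads, stood in 13 of the 46 (28.3%) and in 12% of all windows. The G and C content of the 46 windows ran from 41.3% to 83.7%, and base composition was not taken into account in any of these shares. Both strands were searched, and a match is a description of these letters, not a bound site.

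The windows that hold the androgen word are shown first, followed by those of Fstl1 and Smad3, the genes with the largest lower and the largest higher difference among the 6 that kept 1.5-fold without background correction; the latter pair holds none of the 3 words. They lie at chr9:64022010-64022309 on the minus strand (Smad6), chr1:119422199-119422498 on the minus strand (Inhbb), chr1:59764029-59764328 on the plus strand (Bmpr2), chr16:37776805-37777104 on the plus strand (Fstl1) and chr9:63757945-63758244 on the minus strand (Smad3). Each is given 5′ to 3′ on the strand of its gene, with matches of the 3 words in capitals.
Smad6: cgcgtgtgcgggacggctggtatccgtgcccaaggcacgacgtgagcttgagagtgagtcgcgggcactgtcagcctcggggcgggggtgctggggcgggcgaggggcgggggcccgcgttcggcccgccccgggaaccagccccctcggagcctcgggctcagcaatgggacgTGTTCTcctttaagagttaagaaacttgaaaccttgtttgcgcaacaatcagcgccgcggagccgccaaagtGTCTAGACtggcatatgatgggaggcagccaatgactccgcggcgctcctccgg
Inhbb: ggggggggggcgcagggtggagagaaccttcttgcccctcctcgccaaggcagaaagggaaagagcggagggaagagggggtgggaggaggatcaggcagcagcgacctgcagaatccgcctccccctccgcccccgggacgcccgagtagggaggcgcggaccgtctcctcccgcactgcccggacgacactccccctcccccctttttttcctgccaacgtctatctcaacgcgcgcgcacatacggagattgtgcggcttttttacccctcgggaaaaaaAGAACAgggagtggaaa
Bmpr2: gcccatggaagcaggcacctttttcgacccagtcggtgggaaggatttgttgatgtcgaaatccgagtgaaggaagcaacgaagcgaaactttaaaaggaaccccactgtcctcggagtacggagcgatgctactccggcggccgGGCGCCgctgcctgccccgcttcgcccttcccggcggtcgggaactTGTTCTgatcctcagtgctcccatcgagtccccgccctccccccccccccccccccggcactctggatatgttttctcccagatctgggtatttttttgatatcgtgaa
Fstl1: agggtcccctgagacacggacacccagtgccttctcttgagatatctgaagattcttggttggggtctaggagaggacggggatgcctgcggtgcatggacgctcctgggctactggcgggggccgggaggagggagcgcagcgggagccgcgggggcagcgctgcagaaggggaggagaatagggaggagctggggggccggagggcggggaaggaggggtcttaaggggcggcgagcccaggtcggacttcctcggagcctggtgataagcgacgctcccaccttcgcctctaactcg
Smad3: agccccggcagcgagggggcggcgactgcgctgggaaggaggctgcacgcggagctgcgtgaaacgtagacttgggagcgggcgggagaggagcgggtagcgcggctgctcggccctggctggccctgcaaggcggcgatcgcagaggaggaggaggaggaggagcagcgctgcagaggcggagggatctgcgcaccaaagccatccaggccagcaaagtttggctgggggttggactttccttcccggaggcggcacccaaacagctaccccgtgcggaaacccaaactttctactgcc
In Smad6 the androgen word began at base -76 from the transcription start and the Smad word at base -4, and in Bmpr2 the androgen word began at base -59 and GGCGCC at base -105. In Inhbb the androgen word began at base 34, inside the transcribed part.

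Among the ligands, the activin subunits Inhba and Inhbb had positive differences, while 9 of the 13 detected ligand genes had negative ones. The array carried 25 ligand genes. The median of the 13 was -0.16, and 2 of them passed 1.5-fold upward and 4 downward, where 13.4% and 15.8% of all named genes did. Of the 9 detected on both arrays 1 was higher and 2 lower, since Gdf3, Tgfb1 and Bmp5 passed through 1 array only. Of all named genes so detected 12% were higher and 13.4% lower. Without background correction 0 of the ligand genes passed that size in either direction. Inhbb, which encodes the subunit of activin B, had a vehicle signal of 196 and a DHT signal of 231, a difference of 0.94 (1.92-fold, or 1.29-fold without background correction). Inhba, the subunit of activin A, had signals of 216 and 228 and a difference of 0.54. Both activin genes were dim, near the lowest detected signals of 190 (vehicle) and 180 (DHT); the order of signals is vehicle, then DHT, throughout.

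All 3 TGF-beta ligands had negative differences. Tgfb1, the isoform most tied to fibrosis, had a vehicle signal of 232 and a DHT signal of 174, not well above background, so it was at least 1.57-fold lower on the background-corrected scale and 1.23-fold uncorrected. Tgfb3 had signals of 920 and 612 (-0.39) and Tgfb2 of 596 and 451 (-0.20). The differences of Tgfb2 and Tgfb3 were under 1.5-fold, and that of Tgfb2 was close to the probe-to-probe SD.

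Of the BMP ligands, Bmp4, active in embryonic patterning, had signals of 1129 and 866, with a difference of -0.15, less than the probe-to-probe SD. Bmp7 was at the edge of detection on both arrays, at 205 and 183 (-0.16), and Bmp6 was detected on the vehicle array alone, at 190 against 173, with no fold. Bmp5 was likewise detected with vehicle only, at 217 against 165, and was at least 1.36-fold lower on the background-corrected scale (1.23-fold uncorrected). Bmp3, which counters other BMPs, had signals of 355 and 243 (-0.64, and 1.28-fold lower uncorrected). Of Bmp3, Bmp4 and Bmp7, detected on both arrays, Bmp3 alone lay beyond 1.5-fold.

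The remaining detected ligands were growth and differentiation factors. Gdf10, a relative of Bmp3, had signals of 1605 and 1821 (0.47, 1.39-fold higher). Gdf9, best known from the oocyte, was dim at 325 and 231, and its difference of -0.59 lay just past 1.5-fold and at 1.24-fold uncorrected. Gdf3, best known from the early embryo, was not well above background with vehicle, at 156 against 188, and was at least 1.22-fold higher on the background-corrected scale. Myostatin, Mstn, the ligand that restrains muscle growth, had signals of 125 and 121 and was detected on neither array, so its level was not compared; the same holds for Bmp2, Bmp8a, Bmp8b, Bmp10, Bmp15, Gdf2, Gdf5, Gdf6, Gdf7, Inhbc and Inhbe.

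The antagonists and binding proteins chosen by symbol, 3 of them latent TGF-beta binding proteins, were nearly all lower on the DHT array. The 12 further ones described below had a median of -0.07. Of 6 detected genes 5 passed 1.5-fold downward and 0 upward, at a median of -0.68, where 15.8% of all named genes were lower. Without background correction 2 of the 6 were lower, where the share of all named genes was 8.43%. Fstl1, a secreted glycoprotein with a follistatin domain made by mesenchymal cells, had a signal of 7317 with vehicle and 2042 with DHT. Its difference of -1.68 (3.21-fold lower, 3.09-fold uncorrected) was the largest of the 44 genes in size and well beyond the probe-to-probe SD, though it rests on 1 probe.

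The 3 detected latent TGF-beta binding proteins, which tie the inactive cytokine to matrix fibrils, were all lower. Ltbp4 had signals of 3564 and 1534 (-1.03, 2.04-fold lower), and its other detected probe gave nearly the same difference, -1.05. Ltbp3 had signals of 2380 and 1345 (-0.61, 1.53-fold lower, and 1.49-fold uncorrected). Ltbp1 had signals of 534 and 324 (-0.71, and 1.40-fold lower uncorrected), while its other detected probe, with signals of 190 and 179, the latter not well above background, gave 0.03. Ltbp2 was detected on neither array.

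Follistatin, Fst, which binds activins and myostatin, had signals of 424 and 279 (-0.64, 1.56-fold lower, and 1.32-fold uncorrected). The BMP antagonist chordin, Chrd, had signals of 504 and 452, a difference of 0.12 that is less than the probe-to-probe SD. Noggin (Nog) and gremlin (Grem1), 2 further BMP antagonists, were detected on neither array. Bmp1 shares its name with the ligands but encodes the protease that trims procollagen and also cleaves chordin. It had signals of 3715 and 1490 (-1.13, 2.19-fold lower, and 2.09-fold uncorrected), and its other detected probes gave -0.89 and -0.72, lower as well.

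**Figure D2:**
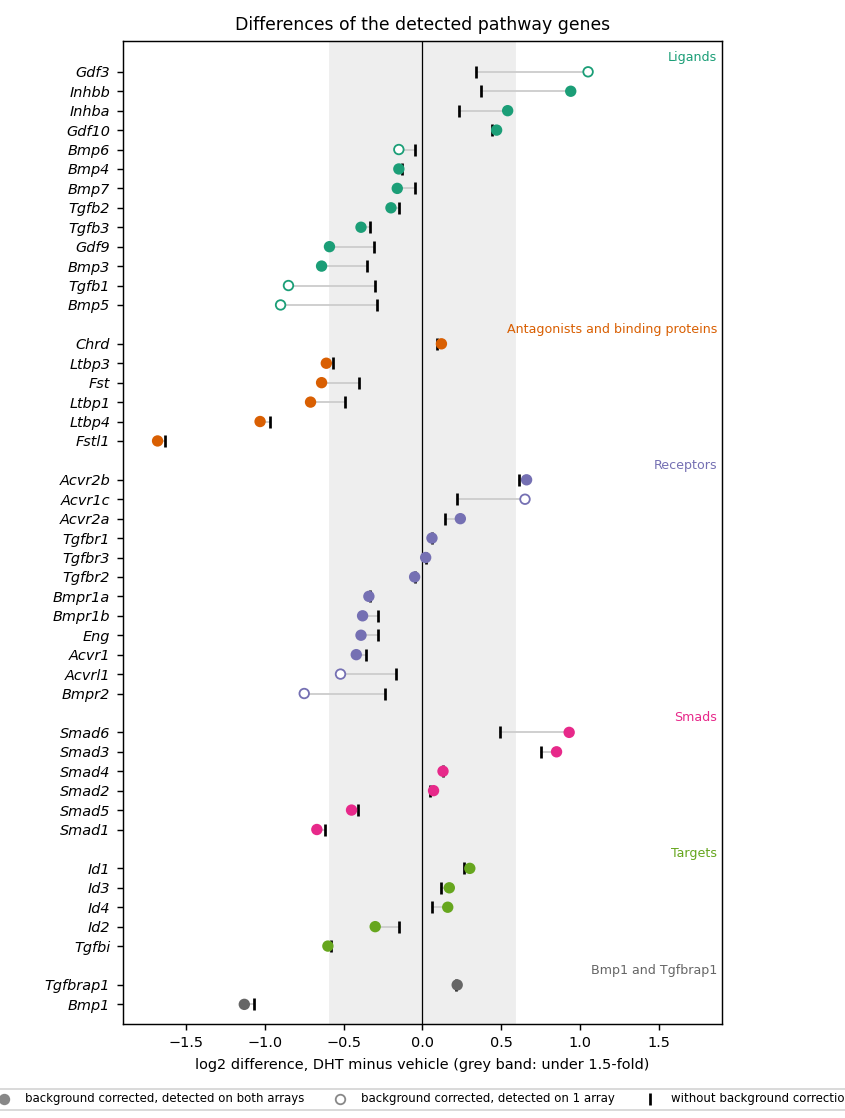
log2 difference (DHT minus vehicle) of each detected pathway gene by role, with background correction (circles, open where the gene was detected on 1 array) and without it (bars), 1 array per group. Fstl1, Bmp1 and Ltbp4 lie beyond the grey band of 1.5-fold on the lower side, and Smad3 and Acvr2b on the higher side, with both treatments of the background, whereas dim genes such as Inhbb move inside the band without the correction.

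Receptors differed by less than the secreted genes. Those assigned here to activin lay above 0 and those assigned to BMPs below it. Each receptor was counted in a single branch, so the contrast depends on that assignment. Of 13 receptor and co-receptor genes 12 were detected, at a median of -0.19. Of the 12, 2 passed 1.5-fold upward and 1 downward, where 13.4% and 15.8% of all named genes did. Of these 3, Acvr1c and Bmpr2 were detected on 1 array only and have bounds under 1.5-fold; among the 9 receptor genes detected on both arrays Acvr2b alone passed it, and the median was -0.05. Acvr2b, the type II receptor of myostatin and activins, had signals of 1601 and 2057 (0.66, 1.58-fold higher, and 1.53-fold uncorrected). Its relative Acvr2a had signals of 297 and 285 (0.24), a difference within the SD of dim probes. Acvr1c, a type I receptor abundant in fat, was not well above background with vehicle, at 184 against 198, and was at least 1.43-fold higher on the background-corrected scale (1.16-fold uncorrected). Acvr1b, the main type I activin receptor, was detected on neither array.

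By the probe that stands for each gene, the 6 detected receptors assigned here to BMPs were all on the lower side, though by little. Eng and Acvrl1 are among these 6. The BMP co-receptors Rgmb (0.89) and Hjv (0.80), both dim, were counted with the further antagonists and binding proteins and were higher. Acvr1, a type I receptor of BMPs, had signals of 1222 and 790 (-0.42). Bmpr1a, another type I receptor, had signals of 4285 and 2908 (-0.34), with its second detected probe at -0.32. For Bmpr1b the signals were 603 and 418 (-0.38), but its second detected probe gave 0.08. The type II receptor Bmpr2 was detected on the vehicle array alone, at 205 against 163, and was at least 1.18-fold lower on the background-corrected scale. Its other probe, detected on neither array, had signals of 172 and 172 and lay on the higher side (0.26). Eng, the co-receptor endoglin, and Acvrl1, the type I receptor ALK-1, are both abundant in endothelium. Eng had signals of 586 and 405 (-0.39), and Acvrl1, detected on the vehicle array alone at 213 against 175, was at least 1.30-fold lower on the background-corrected scale (1.13-fold uncorrected). Of these 6 genes, all that an alternative kept were negative under it, with medians between -0.40 and -0.28 over the 10 alternatives. Without background correction 0 of the 6 passed 1.5-fold. This grouping by branch was drawn up with the values known.

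The 3 receptors named Tgfbr were nearly level. Tgfbr1, the type I receptor, had signals of 3750 and 3307 (0.06), Tgfbr2, the type II receptor, 5325 and 4487 (-0.05), and the co-receptor Tgfbr3, betaglycan, 1654 and 1406 (0.02). All 3 differences were less than the probe-to-probe SD of bright probes, and that of Tgfbr2 was 0.06 with median scaling and 0.11 as the mean of its probes. Tgfbrap1, a protein that associates with the TGF-beta receptors, had signals of 2029 and 1962 (0.22).

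The Smads lay on both sides of 0. Of 7 Smad genes on the array 6 were detected, and 2 passed 1.5-fold upward and 1 downward, where 13.4% and 15.8% of all named genes did. Smad3, which carries TGF-beta and activin signals, had signals of 892 and 1254 (0.85, 1.81-fold higher, and 1.68-fold uncorrected). Smad2, its partner in that branch, had signals of 515 and 449 (0.07), and the shared Smad4 had 4668 and 4419 (0.13), both within the probe-to-probe SD. Smad1, of the BMP branch, had signals of 2434 and 1329 (-0.67, 1.59-fold lower, and 1.54-fold uncorrected), with its second detected probe at -0.72. Smad5, of the same branch, had signals of 1748 and 1102 (-0.45), and all 3 of its detected probes lay between -0.45 and -0.34. Smad6, which inhibits BMP signalling and is itself induced by it, was dim at 245 and 304, with a difference of 0.93 (1.91-fold higher, 1.40-fold uncorrected). Its other probe, detected on neither array, had signals of 181 and 176 and gave 0.16. Smad9 was detected on neither array.

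**Figure D3:**
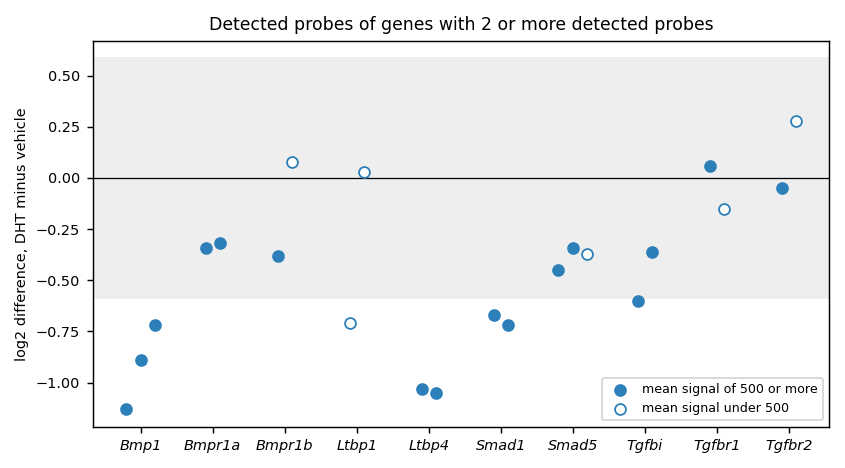
log2 difference (DHT minus vehicle) of every detected probe of the 10 pathway genes with 2 or more detected probes, ordered by brightness within a gene, 1 array per group. The detected probes of Bmp1, Bmpr1a, Ltbp4, Smad1, Smad5 and Tgfbi share their sign, 6 of 10 genes, and those of Bmpr1b, Ltbp1, Tgfbr1 and Tgfbr2 do not, each with a dim probe (open) on the other side.

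The targets on the list did not share a direction. Id1, Id2, Id3 and Id4 encode inhibitors of basic helix-loop-helix factors such as MyoD and are induced by BMP signalling through Smad1 and Smad5. Id1 had signals of 842 and 843 (0.30), Id3 of 515 and 469 (0.17) and Id4 of 207 and 198 (0.16). Id2 lay on the other side, at 294 and 234 (-0.30). None of the 4 reached 1.5-fold under the 10 alternatives, and their median was 0.17. Tgfbi, a matrix protein named for its induction by TGF-beta, had signals of 6465 and 3706 (-0.60, 1.51-fold lower, and just under 1.5-fold uncorrected, at -0.58), with its second probe at -0.36.

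By where their products act, the genes divided as follows, in a grouping also made with the values known. Of 21 detected genes with secreted products 11 passed 1.5-fold downward and 2 upward, and their median was -0.59. Of the 17 detected on both arrays 9 were lower and 1 higher. Of all named genes 15.8% were lower and 13.4% higher, and of those detected on both arrays 13.4% and 12%. Of the 23 receptors, Smads, Id genes and Tgfbrap1 2 were lower and 4 higher, with a median of 0.06. Among genes with a mean signal of 500 or more, 5 of 9 secreted genes were lower and 0 higher, where 12.9% of all such named genes were lower and 11.2% higher, and 1 of 13 cellular genes was lower and 2 higher. Without background correction 3 of the 21 secreted genes were lower and 0 higher, where the shares of all named genes were 8.43% and 6.74%.

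Markers of the connective tissue and vessel cells that make many of these secreted products were mostly lower on the same array, and those of other cells differed too. At 1.5-fold, 15.8% of all named genes were lower and 13.4% higher. Of 13 fibroblast markers, all detected, 9 were lower and 1 higher, with a median of -1.04, and their summed signal was 124998 with vehicle and 72932 with DHT. Within that list Pdgfra, a defining fibroblast marker, had signals of 4902 and 3773 (-0.17), and Dcn, an abundant fibroblast proteoglycan above 40000 on both arrays, had a difference of 0.00. Of 9 detected smooth muscle and pericyte markers 5 were lower and 1 higher, at a median of -1.14, Cnn1 not detected, and summed signals of 43643 and 19484. Endothelial markers had a median of -1.0, with 8 of 11 lower and 1 higher, Kdr and Erg not detected, and summed signals of 27930 and 13336. Skeletal muscle markers had 1 of 10 higher and 0 lower, with summed signals of 453568 and 459647, several of them near the top of the scale, and adipocyte markers had 5 of 6 higher and 0 lower, with Fabp4 and Retn not detected and summed signals of 38835 and 42376. Neutrophil markers differed most, with 6 of 7 detected lower, a median of -2.55, Mmp8 not detected and summed signals of 10601 and 3336; Ltf, a granule protein, had signals of 1653 and 190. Lymphocyte markers had 3 of 5 higher and 1 lower, at a median of 1.9, with Cd3e, Cd4 and Ms4a1 not detected and summed signals of 1114 and 1300. The 3 higher ones were the T cell genes Cd3d, Cd3g and Cd8b1, each detected on the DHT array alone. Macrophage markers had 2 of 7 lower and 0 higher, at a median of -0.22 and summed signals of 8734 and 7019, and tendon markers 2 of 6 lower and 1 higher, at a median of -0.44, with Thbs4 not detected and summed signals of 4476 and 2856. Lists not plotted were those of erythroid cells, with 3 of 4 detected higher and 1 lower (median 0.84), and of satellite cells, with 1 of 3 lower (-0.04). Schwann cell markers had 0 of 2 past 1.5-fold (0.37). In whole muscle, fewer cells of a type and less RNA per cell cannot be told apart, and the part of these cells in the differences of the pathway genes was not tested.

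**Figure D4:**
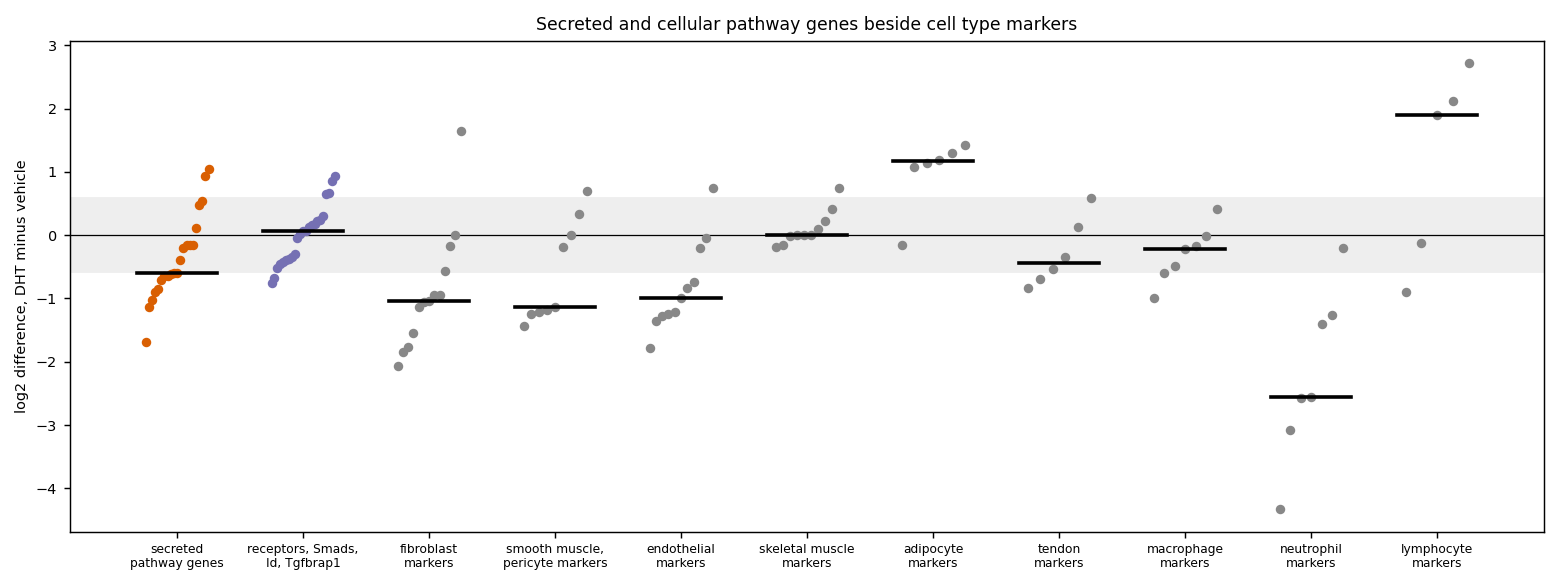
log2 difference (DHT minus vehicle) of each detected gene in the secreted and the cellular pathway groups and in 9 lists of cell type markers, with the median of each as a black line, 1 array per group. The secreted genes have a median of -0.59 and the cellular genes of 0.06, beside -1.04 for fibroblast, -1.14 for smooth muscle and pericyte, -1.0 for endothelial, 0.01 for skeletal muscle (several near the top of the scale), 1.16 for adipocyte, -0.44 for tendon, -0.22 for macrophage, -2.55 for neutrophil and 1.9 for lymphocyte markers.

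Other genes of the pathways were taken from a list of 82, of which 72 were on the array and 49 detected. Of the 49, 6 passed 1.5-fold upward and 11 downward, at a median of -0.08, where 13.4% and 15.8% of all named genes did. Without background correction 3 were higher and 6 lower, where the shares of all named genes were 6.74% and 8.43%. Among the 9 detected targets 3 were higher and 3 lower. Ccn2, a matricellular protein induced by TGF-beta, had signals of 8291 and 4409 (-0.73), and Cdkn1a, the cell cycle inhibitor p21, had 1550 and 2120 (0.75). Hey1, a target shared by Notch and BMP signals, had signals of 216 and 512 (2.47, and 2.70-fold higher uncorrected), the largest difference in the list. The detected targets thus lay on both sides of 0.

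Among genes of TGF-beta release and processing, 0 were higher by 1.5-fold. Of 9 detected, 3 were lower, all 3 of them matrix metalloproteinases, where 15.8% of all named genes were lower and 13.4% higher. Without background correction 2 of the 9 were lower, where the share of all named genes was 8.43%. Mmp14, a membrane-bound protease that activates Mmp2, had signals of 7060 and 1958 (-1.68), and Mmp2 had 13254 and 6832 (-0.77). Mmp9 was dim at 279 and 202 (-0.69, and 1.24-fold lower uncorrected). The TGF-beta-releasing integrin subunits Itgav (0.46), Itgb5 (-0.10) and Itgb6 (0.00) and the convertase Furin (0.05) were under 1.5-fold.

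Of 12 detected further antagonists and binding proteins 2 were higher and 2 lower, where 13.4% and 15.8% of all named genes were. The small proteoglycans biglycan, Bgn, with signals of 14794 and 6736 (-0.95), and fibromodulin, Fmod, with 1205 and 660 (-0.70), were lower, and both bind TGF-beta. The BMP co-receptors Rgmb, at 308 and 391 (0.89), and Hjv, at 229 and 264 (0.80), were higher and dim, at 1.47-fold and 1.30-fold uncorrected. All 3 detected genes among the other ligands and receptors, of 7 on the array, were lower, and 0 of them without background correction. Lefty1, an inhibitor of Nodal, was dim at 269 and 190 (-0.86), and Amhr2, the receptor of anti-Müllerian hormone, had signals of 701 and 427 (-0.60). Inha, the inhibin alpha subunit, was detected on the vehicle array alone, at 271 against 176, and was at least 2.18-fold lower on the background-corrected scale (1.40-fold uncorrected). Of the 12 detected genes of signal transduction, Usp15, a deubiquitinase of the receptor complex, at 296 and 368 (0.86), was the 1 past 1.5-fold, and its uncorrected fold was 1.44. The ubiquitin ligase genes Fbxo32 (0.07), Trim63 (0.35) and Fbxo30 (0.19) and the deacetylase Hdac4 (-0.12), which act downstream of these pathways in muscle wasting, were all under 1.5-fold.

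**Figure D5:**
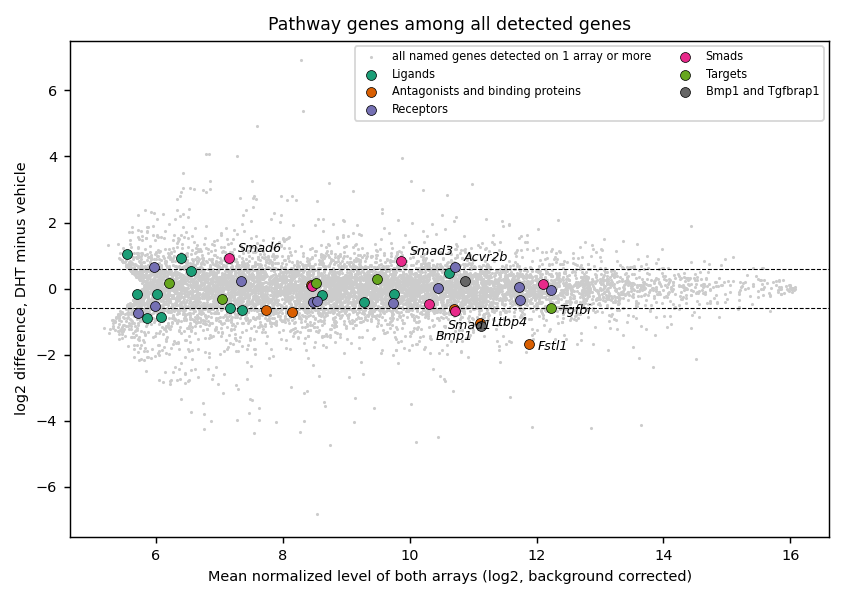
log2 difference (DHT minus vehicle) against mean normalized level for all 8815 named genes detected on 1 array or more (grey) and the 44 detected pathway genes (coloured by role), 1 array per group; dashed lines mark 1.5-fold. The pathway genes lie within the cloud of all genes, where differences spread more widely at low levels, and Fstl1, at -1.68, lies farthest from 0 among them.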

How the data were processed

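The series has 1 array each of vehicle and DHT muscle. The authors deposited a signal intensity per probe, linear and not normalized, with a detection p-value beside each, per the file headers, and a second table of log2 values, which equal the quantile-normalized deposited log2 signals to within 0.000654. GenomeStudio 2011.1 is named in the submitters' processing notes, with no role; its settings, and any genome build, were not given in the sources used here. Per the labels, biotinylated cRNA was made from 0.55 µg of RNA.

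From the signals, limma's neqc (version 3.58.1, under R 4.3.3) estimated the background from the detection p-values, removed it, added an offset of 16 and quantile normalized the arrays, a step checked on simulated data. That check seeded only changes larger than 1.5-fold and none in dim probes, so it does not cover dim genes near that size. The main alternative left the background in. Probes were named through the platform annotation, which can be old (23978 probes with 1 symbol, 0 with several, 1719 with none). Detected meant a p under 0.01, as for 11949 probes with vehicle and 11734 with DHT. The detected probe with the highest mean stood for its gene. A gene detected on 1 array has only a bound, "at least N-fold", against the lowest detected signal of the other array or its own, whichever is higher. No pathway gene was near saturation (highest signal 7317). With 1 array per group there is no test and no error, and the number of arrays limits the precision. All detected members are named; of the other pathway genes, the 12 past 1.5-fold with the largest differences among those detected on both arrays were to be named, and others that the text names were chosen after their values were seen. Members and lists were chosen with earlier results of these data known. Promoter sequences are from RefSeq; Python 3.11.15 with pandas 2.3.3, numpy 2.4.6 and matplotlib 3.10.9 served for tables and plots.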

Additional observations from a re-analysis of the deposited data

How the results depend on the processing

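The counts depended on the size asked for and on the background correction. Without the correction, and in the authors' deposited log2 values, 2 pathway genes were higher and 4 lower in place of 6 and 13, and of the other pathway genes 3 were higher and 6 lower in place of 6 and 11. The 2 and 4 are 4.55% and 9.09% of the detected pathway genes, close to the 6.74% and 8.43% of all named genes. With an offset of 50, 5 of the 44 pathway genes were higher and 7 lower, where 10.4% and 12.5% of all named genes were. At 2-fold, 1 pathway gene was higher and 3 lower, and 2 and 2 of the other list, where 4.61% and 6.28% of all named genes were. With genes of a mean signal of 500 or more alone, an alternative chosen after seeing the data, 2 of 22 pathway genes were higher and 6 lower. Of the other list 1 was higher and 7 lower. Of all named genes that bright, 11.2% were higher and 12.9% lower. At a detection p under 0.05, 4 pathway genes were detected on 1 array in place of 7. The other alternatives, median scaling, detection on both arrays, the mean over probes, bounds, and leaving out probes above 40000, moved no count by over 1.5 times. The median difference lay between -0.27 and -0.14. Of 411 values of single pathway genes under 10 alternatives, 380 stayed within the probe-to-probe SD of the reported value, 31 moved by more, and 0 of those past 1.5-fold changed sign. Many of the 411 equal the reported value by construction, since a filter that keeps a gene leaves its value as it was. The authors' values also repeat the uncorrected ones, so these counts are a weak measure of stability. No paired analysis was possible because each group has 1 array.

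Signals near 190 and 180, the lowest detected, limit the ligands most: the signals of Mstn, Inhba, Inhbb, Tgfb1 and of the BMPs other than Bmp3 and Bmp4 lay near or under them. Whether the differences belong to DHT, to the animals or to the tissue taken cannot be told apart with 1 array per group.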
